A study of Mus musculus with 8 samples.

Results

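The enzymes and chaperones that turn new procollagen chains into crosslinked fibrils were followed in skeletal muscle RNA of 8 mice. They comprised 10 genes of the 55487 in the deposited values, namely Pcolce, Fkbp10, Serpinh1, P4ha1, P4ha2, P3h1, Plod1, Plod2, Lox and Loxl1. The genes were listed by name, of which Pcolce and Fkbp10 were chosen by their measured expression, because the study listed them as differing between mice given WT MOTS-c and mice given K14Q MOTS-c. These same K14Q mice were a side of that comparison, so its difference is not tested here. All 10 had at least 10 counts in every library, as did 15135 genes in all.

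All 8 mice were male C57BL/6J, 10 weeks old, with both hindlimbs in casts for 8 days. Each received K14Q MOTS-c at 15 mg/kg/day, divided into 2 intraperitoneal injections per day. MOTS-c is a microprotein encoded within a mitochondrial ribosomal RNA gene, and K14Q is a form of it in which glutamine replaces a lysine. The sample labels name the vastus lateralis as the tissue, whereas the series' own design text and the methods name the gastrocnemius. Fast fibre markers summed to between 1586705 and 3224747 normalized counts and slow fibre markers to between 5404 and 12696, and both muscles hold such fibres. Animals on WT MOTS-c and controls were not analysed here, which left 1 condition, and the values below describe how the genes differed between mice that had been treated alike. The p-values therefore concern the spread between 8 mice and no treatment.

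Procollagen is made in the endoplasmic reticulum, where prolines and lysines of its chains are hydroxylated and where chaperones keep the chains apart until the triple helix has formed. After secretion the propeptides are cut off, and lysyl oxidases then convert lysines into aldehydes from which the crosslinks between molecules form. In muscle these steps take place mainly in fibroblasts, which lay down the connective tissue around fibres and their tendon attachments.

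Prolyl 4-hydroxylation, which makes the triple helix stable at body temperature, rests on an alpha subunit that P4ha1 or P4ha2 encodes. Both are known targets of hypoxia-inducible factors, whose binding core is ACGTG or GCGTG. The 300-base promoter windows of RefSeq on GRCm38.p6 (250 bases before and 50 after the start) are therefore shown for both, and for Serpinh1, the gene of the collagen chaperone HSP47, whose r with P4ha1 was among the 8 of 45 pairs over 0.7 described below. Capitals mark a core on either strand, and each is printed 5′ to 3′ along the strand of the gene. P4ha1 lies on the plus strand at chr10:59323046-59323345, P4ha2 on the plus strand at chr11:54100674-54100973 and Serpinh1 on the minus strand at chr7:99353190-99353489.

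P4ha1: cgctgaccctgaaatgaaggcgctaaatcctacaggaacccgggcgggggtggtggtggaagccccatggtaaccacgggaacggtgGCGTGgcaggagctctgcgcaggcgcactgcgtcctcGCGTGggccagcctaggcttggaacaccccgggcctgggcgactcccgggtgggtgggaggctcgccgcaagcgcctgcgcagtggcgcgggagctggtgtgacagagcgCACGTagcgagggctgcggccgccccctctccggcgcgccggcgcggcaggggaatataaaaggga

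P4ha2: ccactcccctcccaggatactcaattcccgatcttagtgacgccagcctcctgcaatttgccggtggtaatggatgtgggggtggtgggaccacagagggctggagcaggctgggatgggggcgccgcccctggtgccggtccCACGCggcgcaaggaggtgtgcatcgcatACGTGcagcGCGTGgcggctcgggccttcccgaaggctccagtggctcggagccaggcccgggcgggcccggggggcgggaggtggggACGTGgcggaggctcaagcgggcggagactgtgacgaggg

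Serpinh1: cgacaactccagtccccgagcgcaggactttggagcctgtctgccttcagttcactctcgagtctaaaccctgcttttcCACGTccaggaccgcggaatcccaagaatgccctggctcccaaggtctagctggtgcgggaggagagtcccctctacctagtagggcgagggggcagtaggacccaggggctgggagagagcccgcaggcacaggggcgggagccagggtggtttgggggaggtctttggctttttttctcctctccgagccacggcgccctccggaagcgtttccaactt

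Positions count the start base as 1, with no position 0. The P4ha1 window held cores at positions -163, -126 and -16. The P4ha2 window held them at -107, -78, -69 and 11, and the Serpinh1 window held 1 core at -171. P4ha1 also held 1 TATAAA, as did the window of Plod1, which is not printed here. Of all windows, 13.6% held a TATAAA. RefSeq windows were found for 6 of the 10 genes, with 2 starts for P3h1. Each of these 7 windows held a core, against 43.8% of all 32817 windows. The 7 windows had a GC content of 54.7% to 70.3%, above the median of 52.7%, and 63.4% of the 14574 windows with at least the lowest of these contents held a core. A core of 5 letters is common and marks no bound site. No window was found for Fkbp10, Plod2, Lox or Loxl1.

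The hydroxylases and chaperones of the endoplasmic reticulum spanned a wide range of levels. P4ha1 (ENSMUSG00000019916, chromosome 10, 59323296 to 59373304 of GRCm38) had 485 normalized counts in its lowest mouse, 649 at the median and 743 in its highest, with a mean of 632 ± 86.2 (SD, n = 8). P4ha2 (ENSMUSG00000018906, chromosome 11, 54100095 to 54131665) had 308, 359 and 389 in the same order, and a mean of 351 ± 38.4 (SD, n = 8). For P4ha1, mouse 1 was the highest and mouse 5 the lowest. For P4ha2 the highest mice were nearly tied, with 389 in mouse 7, 388 in mouse 5, 386 in mouse 8 and 383 in mouse 1. Its lowest were close as well, with 308 in mouse 2, 311 in mouse 4 and 312 in mouse 6. Counting error alone would give P4ha2 a coefficient of variation (SD over mean) of 5.42%, so its extremes cannot be assigned to single animals. P3h1 (ENSMUSG00000028641, chromosome 4, 119232915 to 119248975), a prolyl 3-hydroxylase, was the steadiest of the 10, with 240 normalized counts in its lowest mouse, 269 at the median and 304 in its highest. Its coefficient of variation (SD over mean) between mice was 7.64%, and the counting error alone would give 6.19%.

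Lysyl hydroxylases prepare the lysines that later carry crosslinks. Plod1 (ENSMUSG00000019055, chromosome 4, 147909753 to 147936767) ranged from 467 in mouse 7 to 586 normalized counts in mouse 4, with a median of 543 and a coefficient of variation of 8.07%. Plod2 (ENSMUSG00000032374, chromosome 9, 92542223 to 92608428), which hydroxylates the telopeptides at the chain ends, ranged from 56.5 in mouse 3 to 111 in mouse 1, with a median of 91.5 and a coefficient of variation of 19.7%. Serpinh1 (ENSMUSG00000070436, chromosome 7, 99345376 to 99353239) ranged from 329.5 in mouse 8 to 562 in mouse 1, with a median of 422. Fkbp10 (ENSMUSG00000001555, chromosome 11, 100415697 to 100424824) encodes FKBP65, a chaperone that lysyl hydroxylation of telopeptides needs. It had 48.2 normalized counts in mouse 8 and between 68.2 and 86.1 in the other mice, and with 44 to 101 counts per library its counting error alone would give a coefficient of variation of 11.9%, against 16.5% between mice.

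Outside the cell, Pcolce (ENSMUSG00000029718, chromosome 5, 137605103 to 137613784) encodes the enhancer of the proteinase that removes the C-propeptide. It had 243 normalized counts in mouse 8, the lowest, 341 at the median and 423 in mouse 2, the highest, with a mean of 339 ± 54.8 (SD, n = 8). Lox, on chromosome 18, encodes lysyl oxidase, and differed more between mice than any other of the 10. Its normalized counts were 1515, 1159, 1001, 1656, 1834, 981, 665 and 527 in mice 1 to 8. Mice 1, 4 and 5 thus stood high and mice 7 and 8 low, a 3.48-fold range with a coefficient of variation of 40.1%. Among the 3705 genes within 2-fold of its mean level, 98.2% had a lower coefficient of variation. Loxl1 (ENSMUSG00000032334, chromosome 9, 58287738 to 58313186), a lysyl oxidase known for its part in elastic fibres, ranged from 209 in mouse 8 to 316 in mouse 4, with a median of 251. Its coefficient of variation was 14.8%, close to the median of 15.6% over the 15135 genes.

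**Figure D1:**
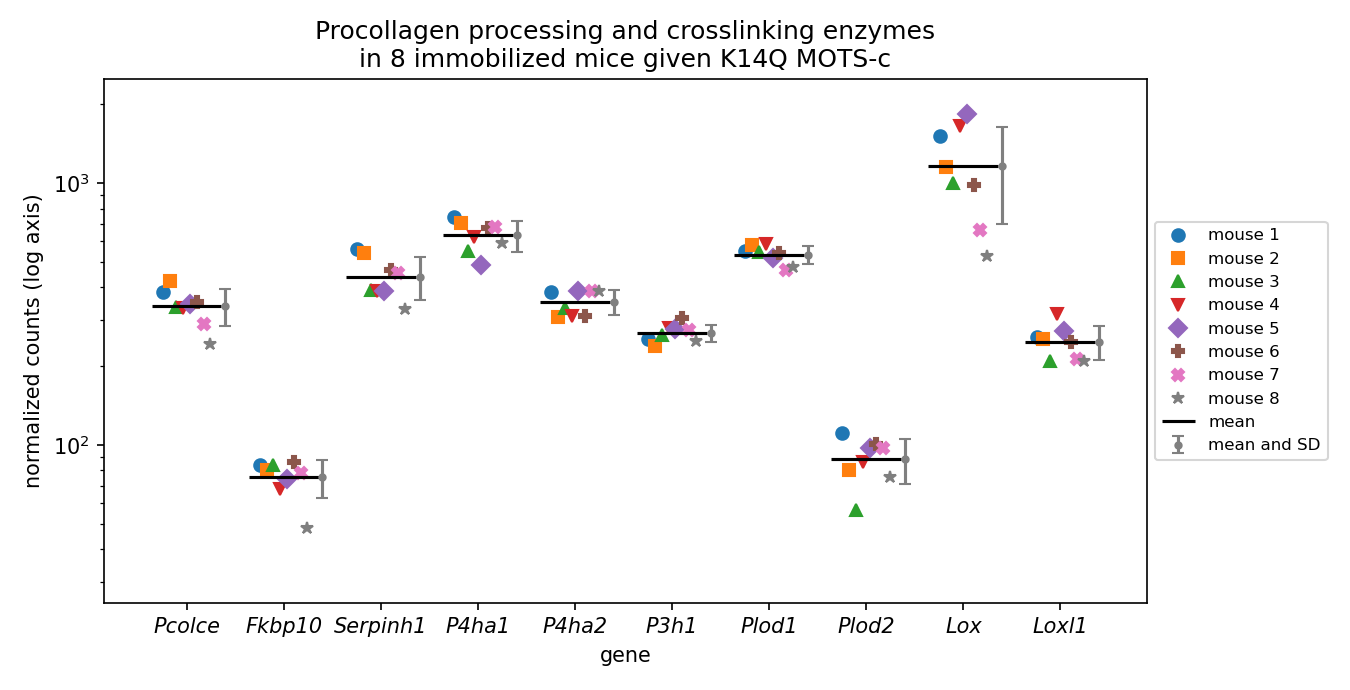
Normalized counts (log axis) of the 10 genes, with 1 symbol per mouse, a black line at the mean and a grey bar for the SD over 8 mice. Lox spread from 527 to 1834, P3h1 only from 240 to 304, and mouse 8 was the lowest for Pcolce, Fkbp10, Serpinh1, Lox and Loxl1.

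Exons of Pcolce overlap those of Fbxo24 on the same strand and of Gm36266 on the other, and exons of Fkbp10, Plod2 and Lox overlap a gene on the opposite strand (Nt5c3b, Gm38391 and AC161119.1). Whether the counting used strand is not given in the sources used here, so reads of these partners may be included or lost.

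Divided by exon length, the order of levels was led by Lox, with a mean of 244 normalized counts per kb. Serpinh1 followed with 180 and P4ha1 with 154, and Lox lay above Serpinh1 in 6 of 8 mice. Pcolce had 88.6, Plod1 78.8, Loxl1 75.0 and P3h1 69.7 normalized counts per kb, and Loxl1 exceeded P3h1 in only 4 of 8 mice. The mean log2 difference was smaller than its SD between mice for Lox and Serpinh1 (0.35 ± 0.61), Pcolce and Plod1 (0.16 ± 0.17), Plod1 and Loxl1 (0.08 ± 0.15), and Loxl1 and P3h1 (0.10 ± 0.21). That sets the mean against the spread of single mice and is no test, so it does not show that these neighbours were equal. Pcolce lay above Plod1 in 7 of 8 mice and Plod1 above Loxl1 in 6 of 8. P4ha2 with 56.3, Fkbp10 with 25.7 and Plod2 with 16.3 normalized counts per kb were each below the gene before them in all 8 mice.

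Enzymes that share a reaction stood in unequal proportion. Per kb, P4ha1 exceeded P4ha2 in all 8 mice, by a log2 ratio of 0.92 to 1.80 with a mean of 1.44 ± 0.29 (SD, n = 8), which is 2.72-fold. Plod1 exceeded Plod2 in all 8 mice by a log2 ratio of 1.94 to 2.95, with a mean of 2.29 ± 0.34 (SD, n = 8) or 4.91-fold. Mouse 3, which had the least of the divisor Plod2, had the largest of these ratios. Loxl1 lay below Lox in all 8 mice, with a log2 ratio of -2.22 to -0.80 and a mean of -1.60 ± 0.47 (SD, n = 8). That ratio was nearest to 0 in mice 7 and 8, in which Lox, its divisor, was lowest. Exon length sets part of these sizes, since without division by length the mean log2 ratio of P4ha1 to P4ha2 was 0.84 and that of Loxl1 to Lox was -2.14.

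**Figure D2:**
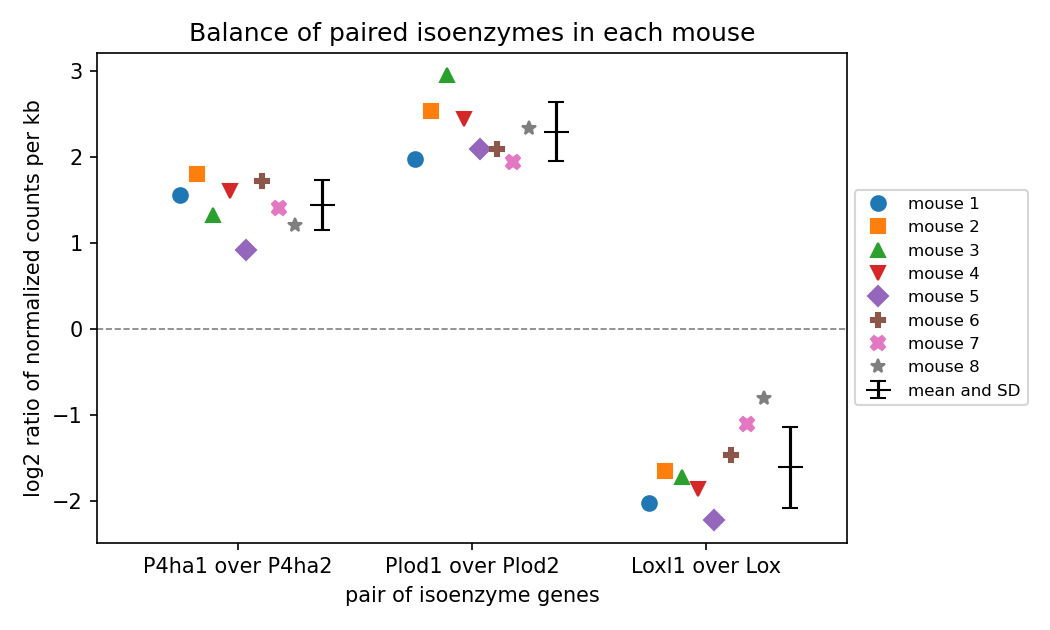
Log2 ratio of normalized counts per kb for each pair of isoenzyme genes, with 1 symbol per mouse and a bar for the mean and SD over 8 mice. All 8 mice lie above 0 for P4ha1 over P4ha2 and for Plod1 over Plod2, and below 0 for Loxl1 over Lox, with mouse 8 nearest to 0 at -0.80.

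Of 25 further genes of the pathway, 20 had at least 10 counts in every library. Tll1, Tll2 and Adamts3 (propeptide removal), P4ha3 and Loxl4 did not. P4hb, the shared beta subunit of prolyl 4-hydroxylase that also serves as protein disulfide isomerase, was far above its partners, with a level of 2699 ± 382 normalized counts per kb (SD, n = 8). Mia3 (TANGO1), which loads procollagen into export carriers, had 1217 ± 119, and Sparc, a secreted collagen chaperone, had 1011 ± 153 (SD, n = 8). Colgalt1, which adds galactose to hydroxylysines, had 310 ± 28.7 (SD, n = 8) and so also exceeded the mean of Lox. Among the propeptidases, Bmp1, the proteinase that Pcolce enhances, had 33.7 ± 3.11 normalized counts per kb and Adamts2, which removes the N-propeptide, 39.8 ± 13.4 (SD, n = 8). Pcolce2, the second enhancer, had 35.3 ± 9.94 and so lay below Pcolce. Loxl2 had 38.2 ± 11.9 and Loxl3 15.5 ± 4.2 (SD, n = 8), both below Lox and Loxl1.

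**Figure D3:**
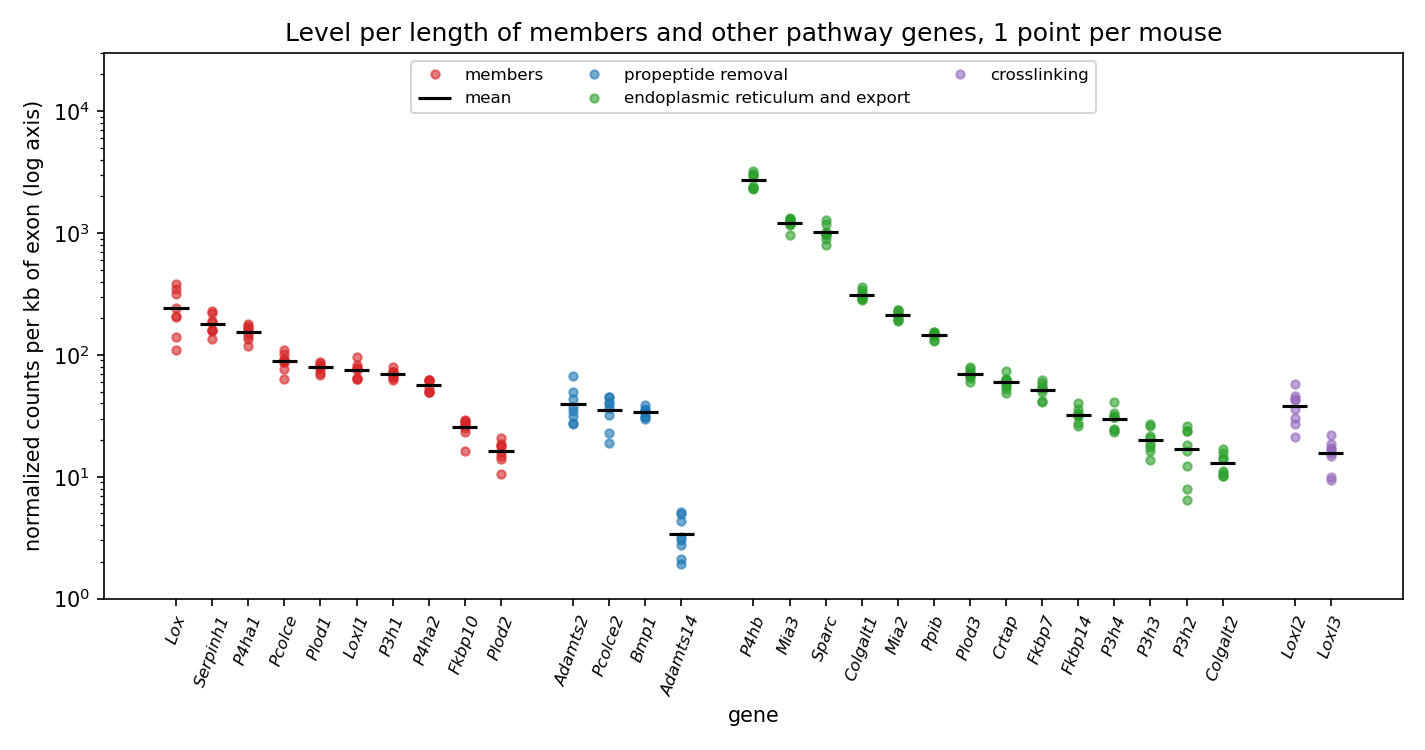
Normalized counts per kb of exon (log axis) of the 10 genes and of the 20 further pathway genes that reached 10 counts in all libraries, 1 point per mouse and a line at the mean. The means of P4hb, Mia3, Sparc and Colgalt1, at 2699, 1217, 1011 and 310, exceed those of all 10, and Lox leads the 10 at 244.

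Whether the genes moved together between mice was measured with Pearson's r of log2(normalized count + 1) over the 45 pairs. The median r was 0.28, against -0.0013 over all gene pairs. Of the 45, 31 were positive, against 49.9% of all gene pairs. An r over 0.7 was reached by 8 pairs, or 17.8%, against 4.98% of all gene pairs. The median rested on 1 animal, since without mouse 8 it was 0.025 and 3 pairs exceeded 0.7. The pairs are not independent, and all of them share the 8 libraries.

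Lox and Loxl1 formed the closest pair (r = 0.84, permutation p of 0.00813, with rho at 0.90 and a permutation p of 0.00456 for it, and an r of 0.83 without the 2 mice farthest from the median of Lox). For Serpinh1 and P4ha1 the values were lower (r = 0.77, permutation p of 0.0256, with rho at 0.86 and a permutation p of 0.0107 for it, and an r of 0.56 without the 2 farthest). The lowest value was that of P4ha2 and Plod1 (r = -0.77, permutation p of 0.0284, with rho at -0.86 and a permutation p of 0.0107 for it, and an r of -0.57 without the 2 farthest). P4ha1 and P4ha2 had an r of -0.24 (permutation p of 0.564, with rho at -0.26 and a permutation p of 0.536 for it, and an r of -0.024 without the 2 farthest), so no shared movement of the alpha subunits was detectable in 8 mice. These p-values are not adjusted for the 45 pairs, from which the extremes were picked.

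**Figure D4:**
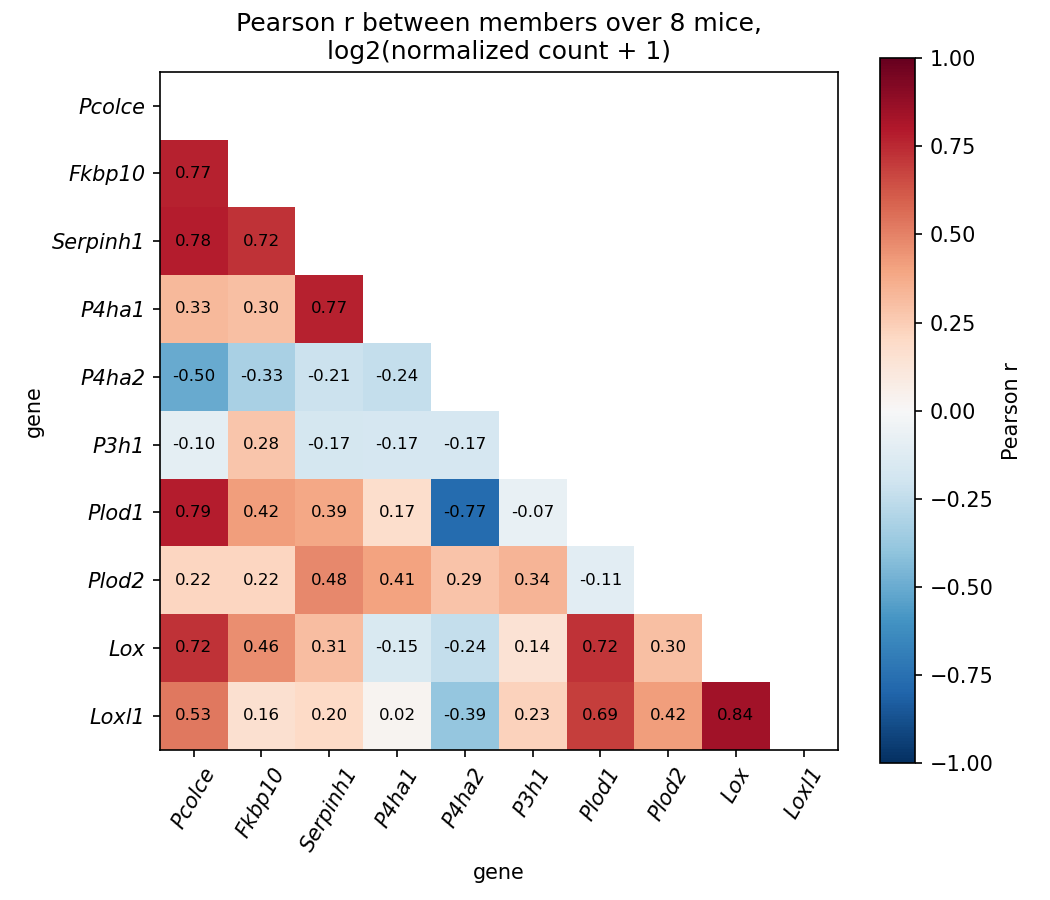
Pearson r of log2(normalized count + 1) over 8 mice for each of the 45 pairs, on a colour scale from -1 (blue) to 1 (red). Lox and Loxl1 have the highest value, 0.84, and the row and column of P4ha2 are mostly negative, down to -0.77 with Plod1.

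The substrate of these enzymes was represented by a score of the fibrillar chains Col1a1, Col1a2 and Col3a1, the mean of their z-scores over mice. It was lowest in mouse 3 (-1.74) and mouse 8 (-1.18) and highest in mouse 2 (0.94) and mouse 1 (0.93). Serpinh1 had a positive r with it that was not called (r = 0.74, permutation p of 0.0356, or 0.652 when adjusted, with rho at 0.71 and a permutation p of 0.0576 for it, and an r of 0.76 without mice 3 and 8). Plod2 had a larger r that rested on mice 3 and 8 (r = 0.77, permutation p of 0.024, or 0.645 when adjusted, with rho at 0.48 and a permutation p of 0.243 for it, and an r of -0.17 without both). The tendon markers described below had an r of 0.79 with this score (permutation p of 0.023, or 0.0863 when adjusted over 15 relations of scores, with rho at 0.81 and a permutation p of 0.0218 for it, and an r of 0.97 without the 2 farthest), and their part in these values was not tested. In mouse 3 Lox had 1001 normalized counts, below its median of 1080 and above its lowest value of 527 in mouse 8. Col1a1 had 497 in mouse 3 and 894 to 2243 in the other mice. Positive values were found for 9 of the 10 genes and for 50.7% of all genes tested. The median r of the 10 was 0.56, against 0.01 over all genes tested. After Benjamini-Hochberg adjustment, none of the 10 was called, and 0% of the 15132 genes tested were. At an unadjusted p under 0.05 there were 2 of the 10 and 1143 genes in all, while limma called 0, edgeR 0 and DESeq2 6 genes, none of them among the 10. The p-values are exact and two-sided, and the smallest that the orders of 8 mice allow is 4.96e-05, and 16 genes at that value would be needed for a call, so a single gene could not pass alone. Of the 20 further genes, 0 were called and 15 were positive, with Sparc (r = 0.89, permutation p of 0.00503, or 0.645 when adjusted, with rho at 0.93 and a permutation p of 0.00223 for it, and an r of 0.86 without mice 3 and 8) the highest.

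The relation to fibroblasts was measured with a score of Dcn, Lum, Pdgfra, Dpt, Mfap5 and Fbln1, markers that are no collagens. It was 1.07 in mouse 2 and 0.70 in mouse 1, and -0.93 and -1.16 in mice 7 and 8. In mouse 5 its members opposed each other, with Lum at its lowest (171 normalized counts) and Mfap5 at its highest (511), and the score there was -0.05. Pcolce had the highest r among the 10 (r = 0.93, permutation p of 0.00112, or 0.0928 when adjusted, with rho at 0.79 and a permutation p of 0.0279 for it, and an r of 0.85 without mice 2 and 8). Plod1 was close to it (r = 0.92, permutation p of 0.00352, or 0.122 when adjusted, with rho at 0.83 and a permutation p of 0.0154 for it, and an r of 0.88 without both mice). Lox had an r of 0.76 (permutation p of 0.0289, or 0.242 when adjusted, with rho at 0.76 and a permutation p of 0.0368 for it, and an r of 0.79 without both mice). P4ha2 stood at the other end (r = -0.57, permutation p of 0.145, or 0.466 when adjusted, with rho at -0.60 and a permutation p of 0.132 for it, and an r of -0.28 without both mice). The median r of the 10 was 0.60, against -0.03 over all genes tested. None of the 10 was called, where 0.304% of the 15129 genes tested were (0.251% with a positive and 0.0529% with a negative r). At an unadjusted p under 0.05 there were 3 of the 10 and 2513 genes in all. With a slope on the score in place of r, limma and edgeR called none of the 10 among 180 and 141 genes (1.19% and 0.932% of those tested), and DESeq2 called Lox (adjusted p = 0.013) and Pcolce (adjusted p = 0.015) among 608 genes (4.1% of 14835). Of the 20 further genes, 16 had a positive r, against 48.3% of all genes tested. The exact test called 0 of the 20, with 4 at an unadjusted p under 0.05. Pcolce2, which limma, edgeR and DESeq2 each called, had an r of 0.91 (permutation p of 0.00206, or 0.106 when adjusted, with rho at 0.93 and a permutation p of 0.00223 for it, and an r of 0.85 without both mice), and P3h2, a prolyl 3-hydroxylase that limma and DESeq2 called, was similar at 0.90 (permutation p of 0.0028, or 0.114 when adjusted, with rho at 0.93 and a permutation p of 0.00223 for it, and an r of 0.84 without both mice). In whole muscle, fewer fibroblasts and less RNA per fibroblast cannot be told apart.

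Summed markers of other tissues varied between the mice as well. The 6 tendon markers summed to between 905 normalized counts in mouse 8 and 6158 in mouse 1, and the 7 macrophage markers to between 1609 in mouse 7 and 4022 in mouse 4. Single markers departed from their list, since the tendon marker Scx was highest in mouse 8 (86.5 normalized counts) and the macrophage marker Cd68 had only 237 and 212 in mice 1 and 2 against 754 in mouse 3. Adipocyte markers (175 to 655) and endothelial markers (2760 to 4343) were lowest in mouse 8 and highest in mouse 2, and smooth muscle markers (1735 to 3375) were lowest in mouse 8 and highest in mouse 3. The cartilage and bone markers summed to 2.12 to 13.0, with Acan and Bglap at 0 in some mice. The tendon score correlated with the fibroblast score (r = 0.90, permutation p of 0.000645, or 0.00967 when adjusted over 15 relations of scores, with rho at 0.95 and a permutation p of 0.00114 for it, and an r of 0.66 without the 2 farthest). The fibroblast score also correlated with the macrophage score (r = 0.89, permutation p of 0.00531, or 0.0294 when adjusted, with rho at 0.81 and a permutation p of 0.0218 for it, and an r of 0.55 without the 2 farthest). Tendon and macrophage scores were likewise related (r = 0.86, permutation p of 0.00588, or 0.0294 when adjusted, with rho at 0.81 and a permutation p of 0.0218 for it, and an r of 0.45 without the 2 farthest), so with 8 mice fibroblasts, tendon and macrophages cannot be told apart. The other 12 relations of scores did not pass. No score was made for muscle fibres, adipocytes, endothelium or smooth muscle, and their relation to the 10 was not tested. Against the tendon score, Pcolce had the highest r of the 10 (r = 0.88, permutation p of 0.000843, or 0.0944 when adjusted, with rho at 0.81 and a permutation p of 0.0218 for it, and an r of 0.56 without mice 7 and 8). Lox had an r of 0.88 (permutation p of 0.0032, or 0.141 when adjusted, with rho at 0.76 and a permutation p of 0.0368 for it, and an r of 0.56 without mice 7 and 8) and Loxl1 of 0.84 (permutation p of 0.0114, or 0.197 when adjusted, with rho at 0.79 and a permutation p of 0.0279 for it, and an r of 0.75 without both). Against the macrophage score, Plod1 had an r of 0.96 (permutation p of 7.44e-05, or 0.214 when adjusted, with rho at 0.98 and a permutation p of 0.000397 for it, and an r of 0.83 without mice 7 and 8). The exact test called 0% of the 15130 and 15128 genes tested against the tendon and macrophage scores, with 2340 and 2222 at an unadjusted p under 0.05, 4 of the 10 in each case (Pcolce, Plod1, Lox and Loxl1). Of the 10, Lox was called against the tendon score by limma (adjusted p = 0.046), which called 77 genes or 0.509% of those tested, and by DESeq2, which called 418 or 2.87%. Against the macrophage score DESeq2 called Lox among 414 genes, or 2.85% of those tested. Of the 20 further genes, the exact test called 0 in either relation, and P3h2 had the highest r with the tendon score (r = 0.97, permutation p of 0.000322, or 0.0728 when adjusted, with rho at 0.98 and a permutation p of 0.000397 for it, and an r of 0.89 without mice 7 and 8). These 2 relations were added after the data had been seen, and the part of these cell types in the levels of the 10 was not tested.

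**Figure D5:**
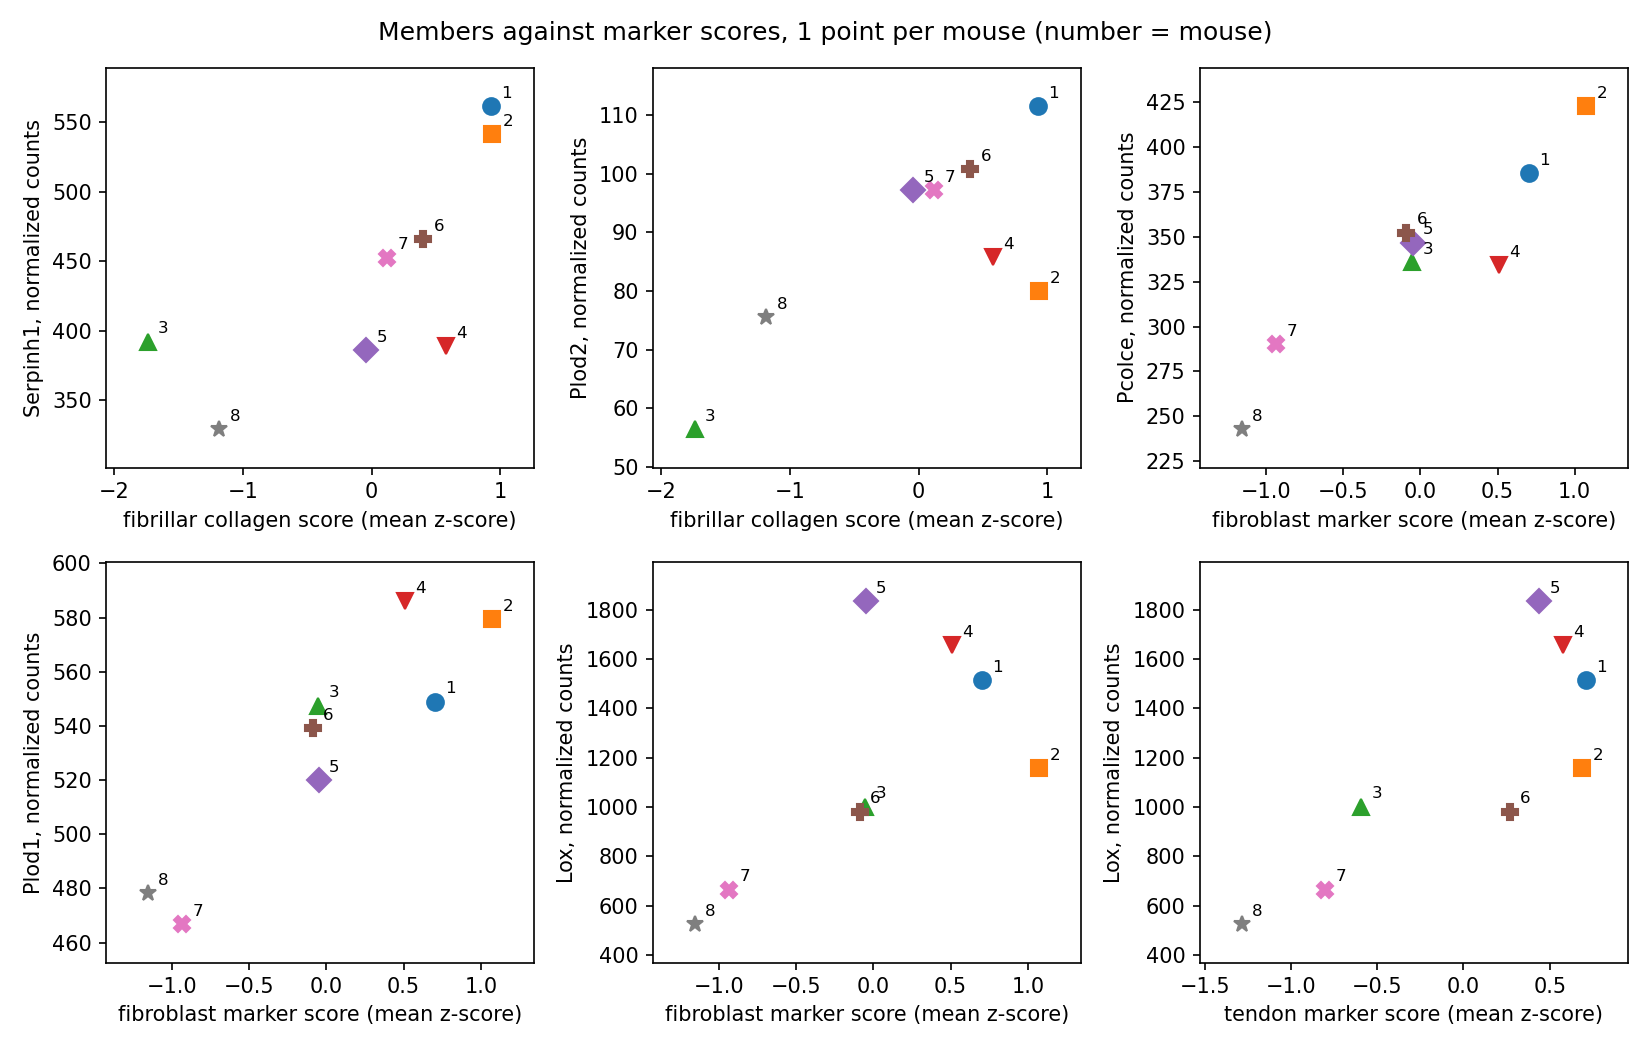
Normalized counts of single genes against marker scores (mean z-score), 1 numbered symbol per mouse, in 6 panels. Pcolce and Plod1 are lowest in mice 7 and 8, where the fibroblast marker score is lowest, with Pcolce highest in mouse 2 and Plod1 in mouse 4 (adjusted p of 0.0928 and 0.122, neither called by the exact test), while the relation of Plod2 to the fibrillar collagen score falls to -0.17 without mice 3 and 8.

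Hypoxia and library depth gave no relation that passed the test. The hypoxia score was built on 8 targets of hypoxia-inducible factors, among them Vegfa, Slc2a1, Pdk1 and Bnip3. These did not move as 1 set, since Pdk1 was higher in mouse 1 (1913 normalized counts) than in mouse 3 (1398), while Bnip3 was lower in mouse 1 (10961) than in mouse 3 (14437), and Vegfa peaked in mouse 5 but Slc2a1 in mouse 4. The score is therefore a mean over targets with opposing patterns. P4ha1, whose window with 3 cores is printed above, had the lowest r (r = -0.63, permutation p of 0.0943, or 0.675 when adjusted, with rho at -0.60 and a permutation p of 0.132 for it, and an r of -0.39 without mice 5 and 6), and Lox had the highest (r = 0.60, permutation p of 0.119, or 0.683 when adjusted, with rho at 0.67 and a permutation p of 0.0831 for it, and an r of 0.62 without both). The known targets P4ha1, P4ha2, Plod2 and Lox thus had r of both signs, with 0.23 for P4ha2 (permutation p of 0.574, with rho at 0.24 and a permutation p of 0.582 for it, and an r of -0.40 without both) and -0.15 for Plod2 (permutation p of 0.735, with rho at -0.10 and a permutation p of 0.84 for it, and an r of -0.15 without both). Of all 15128 genes 0% were called, with 1162 at an unadjusted p under 0.05, 0 of the 10 among them, and DESeq2 called 42 genes, limma 0 and edgeR 0, none of them among the 10. Against library depth, Fkbp10 had the highest r (r = 0.45, permutation p of 0.245, or 0.999 when adjusted, with rho at 0.52 and a permutation p of 0.197 for it, and an r of 0.88 without mice 4 and 5), and Loxl1 the lowest (r = -0.31, permutation p of 0.466, or 0.999 when adjusted, with rho at 0.024 and a permutation p of 0.977 for it, and an r of 0.31 without both). The exact test called 0% of the 15135 genes there, with 416 at an unadjusted p under 0.05 and 0 of the 10 among these. DESeq2 called 2 genes, limma 0 and edgeR 0, and none was among the 10.

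The genes whose pattern over the 8 mice was most like that of each of the 10 were looked up by r among 11023 genes whose mean reached 100 normalized counts. For Lox these were Phf8 (r = 0.99) and Itgam (r = 0.97), which encodes the integrin CD11b of myeloid cells. For Plod1 they were Pxdn (r = 0.99), which encodes the peroxidase that crosslinks collagen IV, and Frmd4b (r = 0.98). For Pcolce they were Gm3365 and Zfhx4, and for Serpinh1 Pds5b and Sipa1l1, each with an r of 0.99. P4ha1 was most like Neo1 and Cachd1, also with 0.99 each. P4ha2 had Pxn and Pex14 at 0.93, and P3h1 had Immt and Smarca4 at 0.92. Loxl1 was most like Tnrc6b (r = 0.98) and Ttc39b (r = 0.95), Plod2 most like Capn2 (r = 0.95) and Daglb (r = 0.94), and Fkbp10 most like Gm13034 (r = 0.97) and Lrrk2 (r = 0.94). With 8 mice and this many genes, values of this size are picked as the highest and carry no p.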

How the data were processed

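Poly-adenylated RNA of 8 muscles was sequenced. The authors trimmed reads with fastp, mapped them with STAR to GRCm38.p6 and counted them per gene with summarizeOverlaps; the annotation release and the use of strand are not given in the sources used here. The deposited signal is the count that the authors divided by a DESeq2 size factor per library (0.906 to 1.20). Whole reads were recovered for 100% of values, within 0.01 of a read, giving 23985356 to 33012497 counts per mouse. Counts carry no molecular identifiers, so the counting errors given cover counting only. No library repeated another (chi-square per degree of freedom of 14.9 to 108 over 28 pairs). Of the gene identifiers, 55227 of 55487 were found in GENCODE M21, which gave symbols, positions and exon lengths.

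The 10 genes, the pathway and marker lists and the tests were chosen with earlier results of these data known. Scores are mean z-scores of log2(value + 1). Each gene with at least 10 counts in every library was tested for Pearson's r against each score by an exact two-sided permutation over all orders of the 8 mice, with Benjamini-Hochberg adjustment over all genes tested (threshold 0.05) and the score's own genes left out. The tendon and macrophage scores were added after seeing the data. The genes named were the 10, 25 further genes of the pathway, the genes of the scores and, for each of the 10, the 2 genes outside these lists with the highest r; among the further genes those with the strongest values are described. Alternatives were TMM factors, library totals, a pseudocount of 5, no filter, Spearman correlation, summed scores, slopes by limma, edgeR's quasi-likelihood test and DESeq2, and leaving out each mouse. Scripts were tested on simulated data. The versions were R 4.3.3 with limma 3.58.1, DESeq2 1.42.0 and edgeR 4.0.16, and Python 3.11.15 with pandas 2.3.3, scipy 1.17.1 and numpy 2.4.6.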

Additional observations from a re-analysis of the deposited data

Results flagged for a closer look

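Among 44 values examined, 3 had 1 mouse whose gap to the others, divided by the whole range, exceeded Dixon's 95% critical value for 8 samples. Chance alone flags about 1 in 20, or 2.2 here.

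Fkbp10 was lowest in mouse 8, at 48.2 normalized counts, where the next lowest mouse had 68.2 and the highest 86.1 (gap over range 0.527). Tll1, a propeptidase related to Bmp1 with 7 to 35 counts per library, was highest in mouse 2 (gap over range 0.551). Mia3, which loads procollagen for export, was lowest in mouse 8, with 4239 normalized counts and a median of 5558 (gap over range 0.549).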

How the results depend on the processing

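No paired analysis was possible because all 8 mice belong to the same group. The levels of the 10 genes moved by less than 1 SD under each of the 110 alternative values computed. Of 1010 alternative values of single relations, 948 kept their direction and their side of the threshold, 5 came past it and 57 changed sign, none of which had been called. Those past the threshold were Lox and Pcolce against the fibroblast score with DESeq2, Lox against the tendon score with limma and DESeq2, and Lox against the macrophage score with DESeq2, so that the members called were 2 (fibroblast, DESeq2), 1 (tendon, limma), 1 (tendon, DESeq2) and 1 (macrophage, DESeq2), in place of 0.

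The 46 genes called against the fibroblast score became 0 with library totals, 0 without a filter, 0 with summed scores, 18 with Spearman correlation, 180 with limma, 141 with edgeR and 608 with DESeq2, and ran from 0 to 0 when each mouse was left out, where the smallest exact p is 0.000397 and 121 genes at that value would be needed. Where the exact test called 0 genes, DESeq2 called 6 (collagen), 42 (hypoxia), 2 (depth), 418 (tendon) and 414 (macrophage), limma 77 (tendon) and 65 (macrophage), edgeR 34 (tendon) and 13 (macrophage), and the exact test 10 with a summed tendon score. The cause was not tested.

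The r of Loxl1 with library depth, -0.31, was 0.024 with Spearman correlation and ran from -0.61 to 0.59 (without mouse 4) when each mouse was left out. The median r of the member pairs ran from 0.025 (without mouse 8) to 0.33, and the pairs over 0.7 from 3 (without mouse 8) to 10, with 4 under Spearman correlation. Without division by length the log2 ratio was 0.84 for P4ha1 over P4ha2 and -2.14 for Loxl1 over Lox. Among the 10, depth limits Fkbp10 and Plod2 most, with 44 to 106 counts in a library. Of the further genes described, P3h2 had 22 to 96.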
